A study of Mus musculus with 4 samples.

Results

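Dividing Kupffer cells are resident macrophages of the liver that carry RNA of the cell division machinery, and 217 such cells were found among 3139 Kupffer cells and 30362 cells kept in all. They were chosen by measured values: between 500 and 6000 genes with a UMI (unique molecular identifier, a counted RNA molecule), no more than 10% of UMIs from mitochondrial genes, and at least 0.8% from the Kupffer cell genes Clec4f, Vsig4, Cd5l, Timd4, C1qa, Folr2 and Marco. Their UMIs held under 0.3% from the endothelial genes Pecam1, Kdr, Stab2, Clec4g, Ptprb, Cdh5, Egfl7, Oit3 and Dnase1l3, and at least 2 UMIs of Mki67 and Top2a together. They were described against the 2686 Kupffer cells with 0 UMIs of both genes, and 236 Kupffer cells with exactly 1 UMI belong to neither class.

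Untreated mice of 4 genotypes gave liver cells for single-cell RNA sequencing, with hepatocytes and non-parenchymal cells isolated and then mixed. WT mice kept both the YAP and the TAZ gene. YAPKO mice carried YAP fl/fl alleles with Alb-Cre, TAZKO mice TAZ fl/fl alleles with Alb-Cre, and DKO mice both pairs of floxed alleles with Alb-Cre. Cre from the albumin promoter acts in hepatocytes and biliary epithelial cells, so Kupffer cells of all 4 genotypes keep intact alleles; the age and sex of these mice are not given in the sources used here. Each genotype is 1 library from 1 mouse, so genotype and mouse cannot be told apart and nothing was tested between genotypes. The libraries held 66259687 UMIs in WT, 85989454 in YAPKO, 49022089 in TAZKO and 77411746 in DKO.

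Kupffer cells line the liver sinusoids, clear particles, bacteria and aged red cells from the blood, and are kept in number mostly by their own division in the adult liver. Division copies the genome in S phase and separates the copies in G2 phase and mitosis. Genes of each phase are switched on in turn by E2F factors and, later, by MuvB complexes with B-MYB and FOXM1. Mki67 encodes a protein that coats mitotic chromosomes, and Top2a an enzyme that untangles DNA strands.

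The dividing cells numbered 85 in WT, 73 in YAPKO, 31 in TAZKO and 28 in DKO. These were 13.1% (10.6 to 16.0) of 647 Kupffer cells in WT, 11.5% (9.11 to 14.2) of 636 in YAPKO, 2.85% (1.94 to 4.02) of 1089 in TAZKO and 3.65% (2.44 to 5.23) of 767 in DKO. The ranges are exact Clopper-Pearson 95% intervals; all intervals and limits given here cover counting error only and say nothing of the spread between mice. WT and YAPKO stood high and TAZKO and DKO low, and the intervals of the pairs did not overlap.

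Depth differed between the libraries too: the median Kupffer cell held 11178 UMIs in WT, 17105.5 in YAPKO, 5194 in TAZKO and 9930 in DKO. With each cell thinned at random to 3000 UMIs before the choice, the shares were 7.82% (5.78 to 10.3) of 588 cells in WT, 5.99% (4.23 to 8.20) of 601 in YAPKO, 2.73% (1.72 to 4.10) of 807 in TAZKO and 2.09% (1.17 to 3.42) of 718 in DKO. Thinning left out 59, 35, 282 and 49 Kupffer cells that held fewer UMIs. WT and YAPKO still lay above TAZKO and DKO, with intervals that did not overlap, and the shares of WT, YAPKO and DKO were over 1.5 times smaller than without thinning.

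Other cell types were counted for comparison, and they may hold dividing cells of their own. At 2 or more UMIs of Mki67 and Top2a, neutrophils reached 0 of 313 cells in WT (median depth 2247 UMIs, exact interval up to 1.17%). They reached 1.03% of 387 in YAPKO (2188 UMIs), 0 of 40 in TAZKO (1875 UMIs, up to 8.81%) and 0 of 172 in DKO (1775 UMIs, up to 2.12%). B cells reached 0.935% in WT, 1.36% in YAPKO, 1.22% in TAZKO and 0 of 327 in DKO (up to 1.12%), at median depths of 2946.5, 2883, 2833.5 and 2181 UMIs. Endothelial cells, whose median depths of 5564, 8308.5, 4151 and 6314 UMIs came nearer to those of Kupffer cells, reached 0.732% in WT, 2.35% in YAPKO, 1.05% in TAZKO and 1.05% in DKO. The Kupffer cell share was above those of endothelial cells and B cells in every library; in TAZKO its interval overlapped those of B cells (0.492 to 2.50) and neutrophils. Thinned to 3000 UMIs it was again above both, but its interval overlapped that of B cells in YAPKO (0.562 to 5.17), TAZKO and DKO (0 to 5.44), that of endothelial cells in DKO (0.494 to 1.45), and that of neutrophils, of which 4 to 76 cells a library could be thinned, in all 4 libraries (in YAPKO 3.95%, 0.822 to 11.1).

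**Figure D1:**
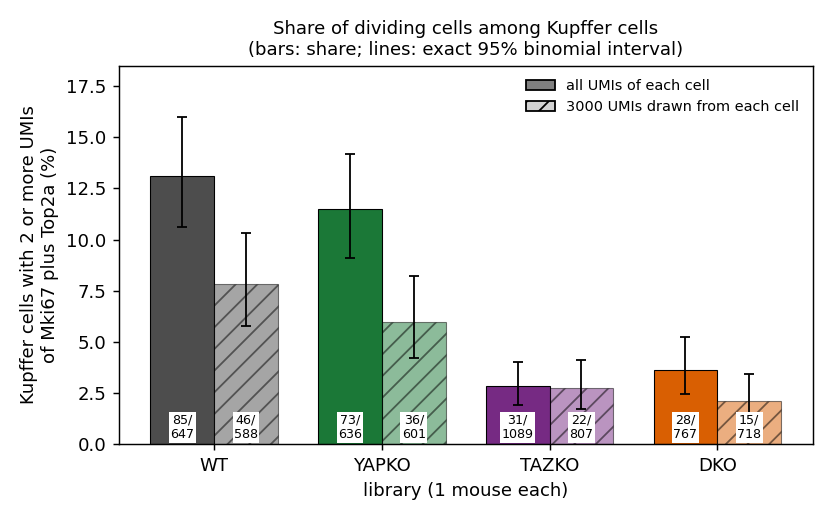
Share of dividing cells among Kupffer cells (percent, vertical axis) in each of the 4 libraries, as counted and after thinning to 3000 UMIs a cell, with exact 95% intervals. WT (13.1%) and YAPKO (11.5%) lie above TAZKO (2.85%) and DKO (3.65%).

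Mki67 and Top2a, which chose the cells, were spread unevenly among them. The median dividing cell held 7 UMIs of both genes together in WT, 6 in YAPKO, 11 in TAZKO and 10 in DKO, and the richest cell 99. Both genes were seen in 155 of the cells, Mki67 alone in 38 and Top2a alone in 24. At the limit itself, 38 cells held exactly 2 UMIs, 25 held 3 and 129 held 6 or more.

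Other division RNA in the cells just inside the limit varied. Genes of the S phase list (37 genes of DNA copying, such as Pcna and Mcm6) made up a median of 0.0455% of UMIs in cells with 2 UMIs, against 0.0409% in cells with 1 UMI, 0.0366% in cells with 0 and 0.370% in cells with 3 or more. Genes of the G2/M list (61 genes of chromosome separation, such as Cdk1 and Ube2c) made up 0.108%, 0.0807%, 0.0713% and 0.950% in the same order. These medians are over the 4 libraries together, and WT differed: its 15 cells with 2 UMIs had medians of 0.198% for S phase and 0.175% for G2/M, against 0.0531% and 0.0807% in its cells with 1 UMI. In the 14 cells of YAPKO, 4 of TAZKO and 5 of DKO the medians were 0.0385%, 0.0398% and 0.0487% for S phase; for G2/M they were 0.0512% in TAZKO and 0.0626% in DKO, with YAPKO between DKO and WT. Some of the 38 cells thus carried much other division RNA and others little, and a single cell of WT reached 3.37% for G2/M. Cells with 0 UMIs, called non-dividing below, were not all free of such RNA. The 90th percentile of S phase RNA in them was 0.167% in WT (median 0.0390%), 0.0671% in YAPKO and 0.0941% in TAZKO. Whether some of them were in the cycle was not tested. With 3 or more UMIs asked for, the shares were 10.8% in WT, 9.28% in YAPKO, 2.48% in TAZKO and 23 of 767 cells in DKO.

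The Kupffer cell genes marked the cells plainly, as the rule requires. Clec4f, a lectin receptor made by Kupffer cells, was seen in 213 of the 217 cells (98.2%), and Vsig4, a receptor for complement-coated particles, in 206 (94.9%). The 7 Kupffer cell genes together gave a median of 2.06% of UMIs in WT, 2.12% in YAPKO, 1.81% in TAZKO and 1.82% in DKO, against 2.41%, 2.69%, 2.31% and 2.10% in the cells with 0 UMIs. Just inside that limit, 9 dividing cells held 0.8 to 1.0%, and just outside it 14 cells with enough Mki67 and Top2a held 0.6 to 0.8%. For the endothelial limit, 4 cells lay inside at 0.2 to 0.3% and 6 outside at 0.3 to 0.4%. No barcode of a dividing Kupffer cell was shared between libraries, while 9 to 26 barcodes of all kept cells were shared by each pair of libraries.

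Among the rule's genes, Clec4f stood at 5159 CPM (counts per 1000000, its UMIs among all UMIs of the cells summed) in the dividing cells of WT, 5347 in YAPKO, 3768 in TAZKO and 3281 in DKO, against 6892, 7480, 5255 and 4555 in the cells with 0 UMIs. Marco, a scavenger receptor for bacteria, stood at 1545, 1611, 572 and 1283 CPM against 893, 1253, 299 and 763. Clec4f was thus the lower and Marco the higher in the dividing cells of all 4 libraries. The rule used these genes, so they are a description with no test.

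Within the dividing cells, S phase and G2/M RNA varied from cell to cell. G2/M UMIs outnumbered S phase UMIs in 46 cells of WT, 53 of YAPKO, 24 of TAZKO and 19 of DKO, and S phase UMIs outnumbered G2/M UMIs in 38, 20, 5 and 8 cells. The remaining 4 cells held as many of each. The lists differ in their number of genes and in the abundance of those genes, so the counts compare libraries and give no phase to a cell. S phase UMIs led most often in WT and least often in TAZKO.

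**Figure D2:**
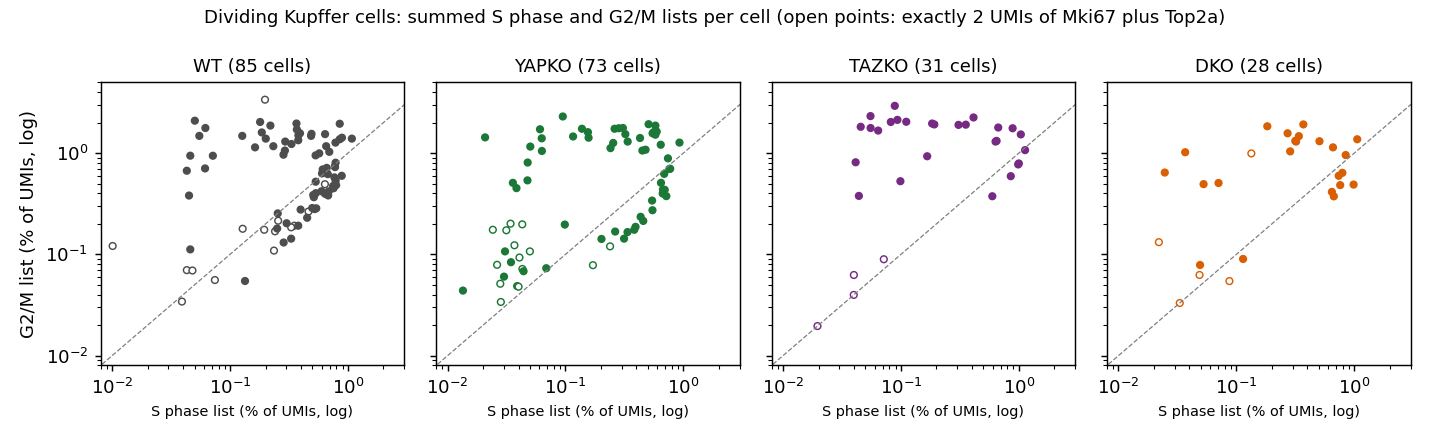
Each point is a dividing Kupffer cell, with the percent of its UMIs from S phase genes on the horizontal axis and from G2/M genes on the vertical axis, both logarithmic, in a panel for each of the 4 libraries. Open points are the 38 cells with exactly 2 UMIs of Mki67 and Top2a, which reach up to 3.37% on the vertical axis in WT.

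Summed over the cells of a library, the S phase list reached 4170 CPM in WT, 2973 in YAPKO, 3283 in TAZKO and 3930 in DKO, against 660, 374, 443 and 496 in the cells with 0 UMIs. Its most abundant gene was Pcna, the sliding clamp of the copying machinery. The G2/M list reached 7538 CPM (7400 to 7678) in WT, 7636 in YAPKO, 13001 (12594 to 13418) in TAZKO and 7338 in DKO, against 893, 769, 749 and 739. TAZKO led in G2/M RNA. WT had the highest S phase level, but its interval (4068 to 4275) overlapped that of DKO (3734 to 4133).

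The TAZKO cells held both the highest median of Mki67 and Top2a and the lowest depth. With cells thinned to 3000 UMIs first and then chosen, the G2/M list stood at 10855 CPM (10312 to 11419) in the 46 cells of WT, 12324 (11671 to 13004) in the 36 of YAPKO, 16576 (15608 to 17588) in the 22 of TAZKO and 12133 (11137 to 13195) in the 15 of DKO. TAZKO was still the highest, by a smaller ratio. With cells chosen first and then thinned, the list stood at 7411 CPM in WT, 7236 in YAPKO, 13233 in TAZKO and 8405 in DKO. With cells thinned first, the S phase list stood at 4565, 3546, 3985 and 4156 CPM, with WT again highest. The interval of WT (4216 to 4936) overlapped those of TAZKO (3518 to 4497) and DKO (3581 to 4796).

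**Figure D3:**
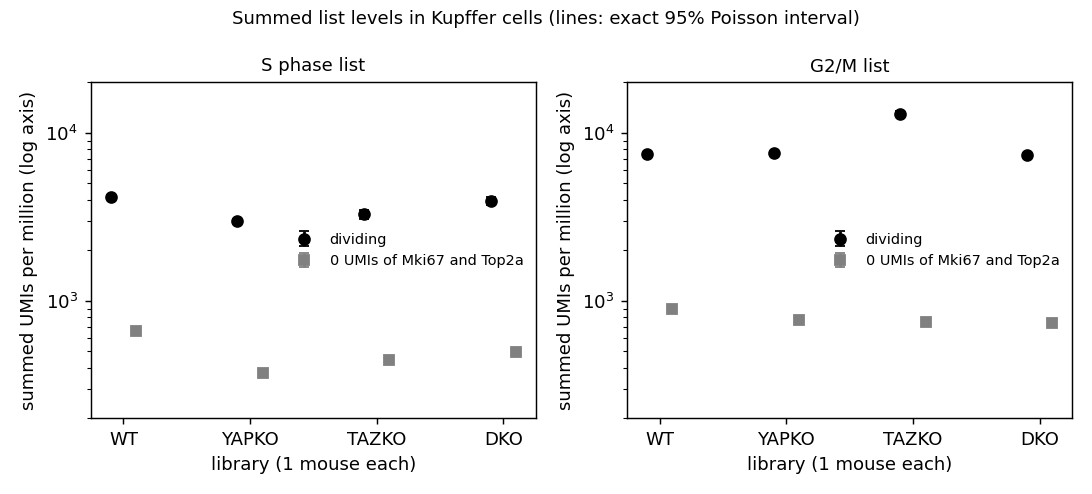
Summed level of the S phase and G2/M lists (CPM, logarithmic vertical axis) in dividing Kupffer cells and in Kupffer cells with 0 UMIs of Mki67 and Top2a, in each of the 4 libraries. In TAZKO the dividing cells reach 13001 CPM for the G2/M list, above the 7338 to 7636 of the other libraries.

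The dividing cells were compared with the cells with 0 UMIs over all genes, to ask what else went with division. Each library gave a pair of sums, 1 for each class, and the edgeR quasi-likelihood test with library as a block measured the spread of the difference over the 4 libraries. Of 10778 genes tested, 1482 (13.8%) were higher and 1332 (12.4%) lower in dividing cells at an adjusted p under 0.05. Without WT the lower genes numbered 723, without YAPKO 747, and with DESeq2 717. The split between higher and lower rests on scaling: 52.7% of the genes past the threshold were higher with trimmed-mean scaling and 68.8% with no scaling factors, while the median of all genes moved from -0.03 to 0.07 on the log2 scale.

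The cell cycle lists are what Mki67 and Top2a look for, so their counts are a description from which nothing is read, beside the 13.8% of all genes. All 37 S phase genes were higher (median log2 fold change 2.93), all 61 G2/M genes (5.50), all 22 chromatin genes tested (2.68) and all 15 DNA repair genes (3.97). Pcna stood at 499, 326, 542 and 456 CPM in dividing cells of WT, YAPKO, TAZKO and DKO, against 106, 75.4, 99.9 and 102. Rrm2, the regulated subunit of the enzyme that makes deoxynucleotides, stood at 139, 119, 202 and 112 CPM against 3.42, 0.908, 0.365 and 1.08. Pcna was thus plain in Kupffer cells with 0 UMIs, and Rrm2 nearly absent from them, with log2 fold changes of 2.12 and 6.48.

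Among G2/M genes, Ube2c, which loads ubiquitin onto cyclins at the exit from mitosis, stood at 291, 314, 657 and 211 CPM against 2.66, 2.98, 3.46 and 1.70. Ccna2, cyclin A2, stood at 91.0, 88.5, 340 and 75.6 CPM against 0.190, 0.389, 0.365 and 0.619. TAZKO was the highest library for both genes in dividing cells, and their log2 fold changes were 6.90 and 8.20. Bub3, a spindle checkpoint protein, had the smallest difference of the list at 0.60.

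Some division genes had nearly no UMIs in the cells with 0 of Mki67 and Top2a. The spindle checkpoint kinase gene Bub1 held 152 UMIs in dividing cells against 3, a log2 ratio of 8.34 with a counting interval of 6.76 to 10.63. Ska1, which ties spindle fibres to chromosomes, held 153 against 2 (8.93, 7.05 to 11.99). The phosphatase gene Cdc25c held 37 UMIs against 0, so it was at least 78.7-fold higher in dividing cells, taking 3 counts over all the cells of the other class as the floor; with Cdc25c at this bound the G2/M median was again 5.50.

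Chromatin genes followed the same pattern at higher levels. Hmgb2, a DNA-bending protein, stood at 1189, 939, 2135 and 1147 CPM against 124, 84.6, 125 and 120. The linker histone gene H1f5 stood at 515, 653, 141 and 276 CPM against 1.90, 2.85, 0.365 and 0.310. Hmgb2 was highest and H1f5 lowest in TAZKO, with log2 fold changes of 3.41 and 8.04. Of the DNA repair list, Pclaf, a partner of the sliding clamp, stood at 442, 274, 522 and 436 CPM against 6.66, 2.85, 4.19 and 2.01 (log2 fold change 6.62).

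**Figure D4:**
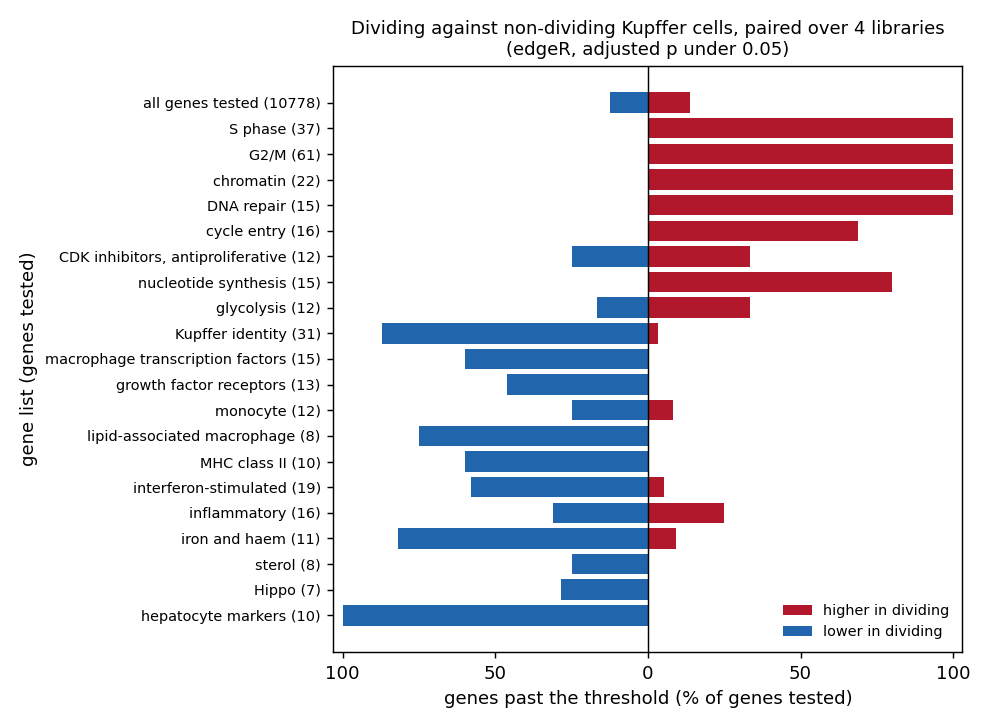
Percent of the tested genes of each list that were higher or lower in dividing Kupffer cells than in Kupffer cells with 0 UMIs of Mki67 and Top2a, beside all genes (13.8% higher, 12.4% lower). Division lists lie on the higher side, and lists of Kupffer cell identity, class II presentation and iron handling on the lower side.

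Promoter letters give a feature of these lists that the rule did not use. RefSeq (GRCm38.p6) windows from 250 bases before to 50 after the start were searched on both strands for TTTGAA (the CHR element bound by MuvB complexes), CCAAT (bound by NF-Y) and the E2F-type letters GGCGGGAA and TTTGGCGC. Windows were matched for 50 of the 61 G2/M genes and 29 of the 37 S phase genes. Of the G2/M windows, 35 (70.0%) held TTTGAA, 38 (76.0%) CCAAT and 30 (60.0%) both, against 18.1%, 37.9% and 7.12% of 27025 genes. Of the S phase windows, 10 (34.5%) held GGCGGGAA or TTTGGCGC, against 2.75% of all genes and 1 G2/M window of 50, 3 (10.3%) held TTTGAA, and 17 (58.6%) held CCAAT, against 37.9% of all genes. Letters of different motifs overlapped in 1 window of each list and 49 of all. A match is a description of letters, not of binding.

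The 3 G2/M windows with TTTGAA and CCAAT whose genes held the most UMIs in dividing cells are shown to let the letters be seen, with TTTGAA and CCAAT, read on either strand, in capitals. They belong to Ube2c (chr2:164769679-164769978, plus strand), Prc1 (chr7:80294201-80294500, plus strand), which bundles the fibres of the late spindle, and Smc2 (chr4:52438971-52439270, plus strand), which helps to condense chromosomes. In Ube2c, CCAAT and its reverse complement overlap in a single run of capitals.
Ube2c: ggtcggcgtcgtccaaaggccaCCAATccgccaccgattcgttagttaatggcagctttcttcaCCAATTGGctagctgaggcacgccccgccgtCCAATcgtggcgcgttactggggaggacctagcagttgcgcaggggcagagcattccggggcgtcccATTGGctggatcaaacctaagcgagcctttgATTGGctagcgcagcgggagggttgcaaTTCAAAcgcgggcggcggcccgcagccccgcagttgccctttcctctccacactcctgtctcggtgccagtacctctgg
Prc1: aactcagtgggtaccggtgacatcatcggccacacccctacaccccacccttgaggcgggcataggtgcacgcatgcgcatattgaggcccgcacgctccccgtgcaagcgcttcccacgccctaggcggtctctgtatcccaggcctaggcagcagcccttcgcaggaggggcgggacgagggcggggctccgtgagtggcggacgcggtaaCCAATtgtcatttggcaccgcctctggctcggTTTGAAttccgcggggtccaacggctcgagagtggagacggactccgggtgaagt
Smc2: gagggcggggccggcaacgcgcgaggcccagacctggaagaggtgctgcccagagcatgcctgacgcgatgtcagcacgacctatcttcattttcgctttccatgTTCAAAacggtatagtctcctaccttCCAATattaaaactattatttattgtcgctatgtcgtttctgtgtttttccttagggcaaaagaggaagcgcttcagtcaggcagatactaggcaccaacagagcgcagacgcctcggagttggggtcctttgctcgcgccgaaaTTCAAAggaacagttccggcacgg

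The 2 S phase windows with E2F-type letters whose genes held the most UMIs are shown in the same way, with GGCGGGAA, TTTGGCGC and their reverse complements in capitals. They belong to Rrm1 (chr7:102441445-102441744, plus strand), the large subunit of the deoxynucleotide-making enzyme, and Mcm3 (chr1:20820263-20820562, minus strand, written along the gene), a part of the helicase that opens DNA for copying.
Rrm1: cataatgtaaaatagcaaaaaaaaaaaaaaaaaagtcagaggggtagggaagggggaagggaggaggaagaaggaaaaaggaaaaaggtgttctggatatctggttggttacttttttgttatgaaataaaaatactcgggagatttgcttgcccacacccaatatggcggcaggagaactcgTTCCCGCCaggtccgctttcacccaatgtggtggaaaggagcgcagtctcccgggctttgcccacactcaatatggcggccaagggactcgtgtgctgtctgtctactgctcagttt
Mcm3: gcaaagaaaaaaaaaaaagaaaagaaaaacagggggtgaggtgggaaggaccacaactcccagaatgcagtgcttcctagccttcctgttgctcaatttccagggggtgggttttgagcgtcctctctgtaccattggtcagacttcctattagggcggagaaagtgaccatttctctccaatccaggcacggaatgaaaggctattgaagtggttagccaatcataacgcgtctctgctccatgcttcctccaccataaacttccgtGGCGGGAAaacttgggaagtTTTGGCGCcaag

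Genes that start and restrain the cycle moved less evenly. Of 16 cycle entry genes tested, 11 were higher in dividing cells (median log2 fold change 0.76), against 13.8% of all genes. After thinning to 3000 UMIs a cell 7 of 14 were higher, and with no library block 7 of 16. The list holds E2f8 and E2f7 (58 UMIs in dividing cells against 1), which are near 0 in the other class. These counts are thus a description. Ccnd1, cyclin D1, which carries growth signals into the cycle, stood at 221, 207, 182 and 206 CPM in dividing cells of WT, YAPKO, TAZKO and DKO, against 227, 220, 226 and 164. It was a little lower in 3 libraries and higher in DKO, with a log2 fold change of -0.13 and an adjusted p of 0.340. E2f1, an activator of S phase genes, stood at 64.4, 50.7, 50.5 and 60.0 CPM against 24.7, 17.4, 22.6 and 18.6, while E2f8, a repressor of the same genes, stood at 43.8, 28.0, 53.9 and 62.6 against 0, 0.130, 0.365 and 0.464. Both stood above in 4 of 4 libraries, E2f1 at a log2 fold change of 1.36 (SE 0.14), while E2f8, which passed the filter through the dividing cells alone, is a description.

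Of 12 genes that restrain the cycle, 4 were higher and 3 lower (median 0.13), against 13.8% and 12.4% of all genes. With no library block 3 were higher and none was lower. Cdkn1a, which encodes the CDK inhibitor p21, stood at 112, 141, 90.9 and 151 CPM against 43.0, 69.0, 31.4 and 37.5. Cdkn2c, an inhibitor of the CDKs that partner with D cyclins, stood at 41.8, 39.6, 104 and 39.1 CPM against 4.56, 5.97, 4.56 and 7.27. Both were higher in the dividing cells of 4 of 4 libraries, with log2 fold changes of 1.28 (SE 0.12) and 3.06 (SE 0.24). Btg2, an antiproliferative gene, stood at 66.4, 53.0, 111 and 46.9 CPM against 135, 82.9, 109 and 109. It was lower in 3 of 4 libraries, and fell by 0.85 on the log2 scale (SE 0.13). This list is among the cell cycle lists that Mki67 and Top2a look for, so its genes are a description with no p.

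Of 15 nucleotide synthesis genes, 12 were higher in dividing cells and none lower, against 13.8% and 12.4% of all genes, with a median log2 fold change of 1.00. Mthfd2, a mitochondrial enzyme of the folate cycle, stood at 110, 99.0, 50.5 and 156 CPM against 7.61, 5.84, 6.93 and 6.50. Impdh2, an enzyme on the way to guanine nucleotides, stood at 50.5, 40.2, 43.8 and 49.5 CPM against 7.66 to 17.8. Both were higher in 4 of 4 libraries, by 3.87 (SE 0.17, adjusted p 1.2e-19) and 1.52 (SE 0.18, adjusted p 1.4e-08) on the log2 scale. Thinned to 3000 UMIs a cell, 7 of the 10 genes then tested were higher, and with no library block 8 of 15.

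Of 12 glycolysis genes, 4 were higher and 2 lower (median 0.09), against 13.8% and 12.4% of all genes. Without WT 1 was higher and 1 lower, without YAPKO 1 was higher, and with DESeq2 2 were higher and 1 lower. Pgk1, an ATP-making enzyme of the pathway, stood at 177, 132, 216 and 151 CPM against 125, 108, 125 and 105, and was higher in 4 of 4 libraries by 0.39 (SE 0.09, adjusted p 0.00204), though not past the threshold when thinned. Aldoa, which splits the sugar, stood at 299, 316, 97.7 and 289 against 343, 384, 193 and 318, lower in 4 of 4, and fell by 0.39 (SE 0.09, adjusted p 0.00143). Of 8 sterol synthesis genes 2 were lower and none higher (median -0.02), and 1 with any library left out; among them was Insig1, a sensor that holds back sterol synthesis.

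Kupffer cell identity genes outside the rule were lower in dividing cells as a share of UMIs. Of 31 such genes, 27 were lower and 1 higher, against 12.4% and 13.8% of all genes, with a median log2 fold change of -0.43. Together they made up 48111 CPM in WT, 55610 in YAPKO, 39158 in TAZKO and 46982 in DKO, against 64476, 75242, 58064 and 76094. The dividing cells were lower in all 4 libraries, and with no scaling factors 23 of the 31 genes were lower. Against non-dividing cells of the same depth range 26 were lower, thinned 22, without YAPKO 21, and with no library block 2. With no library block, 1 gene each of the macrophage factor, growth factor receptor, class II and iron lists taken up below was lower, and none of the lipid-associated, monocyte, interferon-induced, inflammatory, glycolysis, sterol, Hippo and hepatocyte lists.

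Shares and counts per cell ran different ways here. A dividing cell held on average 17716 UMIs of all genes in WT, 23524 in YAPKO, 9580 in TAZKO and 13695 in DKO, against 10312, 15295, 5453 and 9701. Of the identity genes it held 852, 1308, 375 and 643 UMIs, against 665, 1151, 317 and 738. Counted per cell, the identity list was the larger in dividing cells in WT, YAPKO and TAZKO and the smaller in DKO, and 20 of its 31 genes were larger per cell in 4 of 4 libraries. Asking for 2 UMIs against 0 favours deeper cells, so counts per cell are in part fixed by the rule: cells with 1 UMI held a median of 11788.5 UMIs of all genes, against 8415.5 in cells with 0. The counts per cell are thus a description, from which nothing is read on RNA content. The lists of macrophage factors, growth factor receptors, lipid-associated macrophages, interferon-induced genes and iron handling, all taken up below, were each larger per cell in 4 of 4 libraries, and hepatocyte markers in TAZKO alone. Every statement on a lower gene here is on its share of UMIs.

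Apoe, the apolipoprotein that is the most abundant gene of the list, stood at 10663, 14961, 5987 and 13242 CPM in dividing cells against 16596, 24204, 12778 and 32531. Csf1r, the receptor for the growth factor CSF1 on which Kupffer cells depend, stood at 1047, 1118, 1243 and 981 CPM against 1423, 1579, 1900 and 1501. Adgre1, the surface marker F4/80, stood at 546, 550, 576 and 433 CPM against 709, 691, 925 and 531. All 3 were lower in the dividing cells of 4 of 4 libraries. Apoe fell by 1.04 on the log2 scale (SE 0.09, adjusted p 9.6e-12), Csf1r by a log2 change of -0.64 (SE 0.07, adjusted p 1.3e-08) and Adgre1 by a log2 change of -0.51 (SE 0.08, adjusted p 5.1e-06).

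The exception was Id1, a target of BMP signals that blocks differentiation factors. It stood at 253, 206, 37.0 and 130 CPM against 159, 147, 64.5 and 94.7, higher in 3 of 4 libraries and lower in TAZKO. Its log2 fold change was 0.38 (SE 0.11, adjusted p 0.00895), and it was not past the threshold without WT (0.21, adjusted p 0.404), without YAPKO (0.34, adjusted p 0.176), thinned or with DESeq2.

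**Figure D5:**
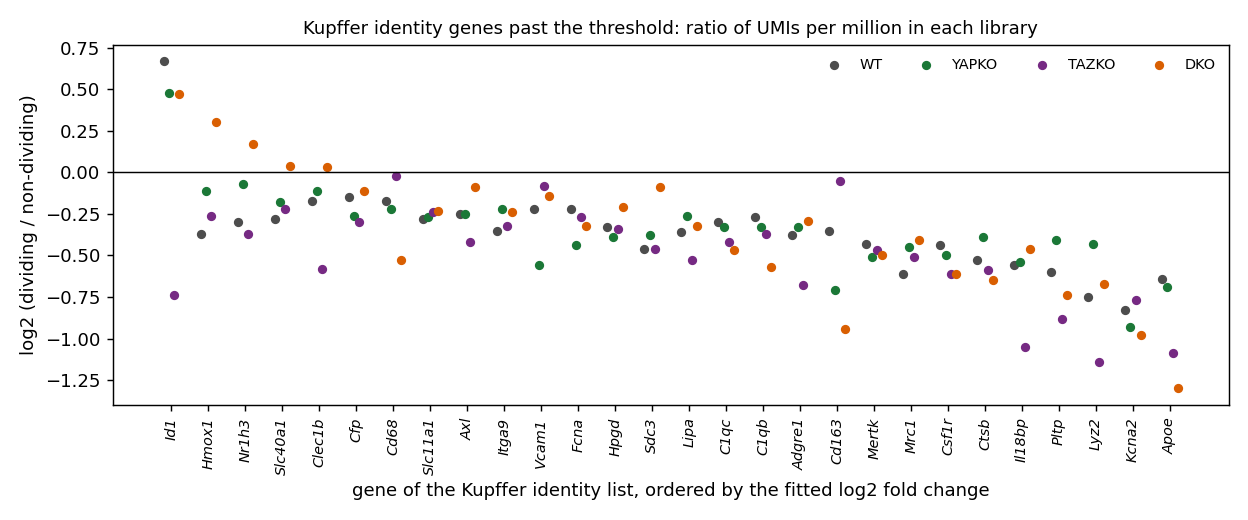
Log2 ratio of dividing to non-dividing Kupffer cells (vertical axis) for the 28 identity genes past the threshold, with a point for each of the 4 libraries. Most points lie below 0, and Id1 lies above 0 in 3 libraries.

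Of 15 macrophage transcription factor genes, 9 were lower and none higher (median -0.38), against 12.4% and 13.8% of all genes. Klf2, a factor known to keep T cells quiescent, stood at 201, 272, 300 and 99.1 CPM against 442, 401, 584 and 160. Cebpa, a myeloid factor known to slow the cycle, stood at 74.4, 79.8, 118 and 80.8 CPM against 122, 124, 264 and 162. Both were lower in 4 of 4 libraries, by log2 changes of -0.94 (SE 0.10, adjusted p 7.2e-10) and -0.90 (SE 0.11, adjusted p 2.3e-08). With cells of at least 1 UMI taken as dividing, 5 of the 15 genes were lower.

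Of 13 growth factor and cytokine receptor genes, 6 were lower and none higher (median -0.31), against 12.4% and 13.8% of all genes, and thinned 3 of 12 were lower. Besides Csf1r these included Csf2rb, the shared chain of the receptors for GM-CSF and related factors, at 108, 134, 114 and 125 CPM against 147, 181, 125 and 144. It was lower in 4 of 4 libraries, with a log2 change of -0.46 (SE 0.10, adjusted p 3.9e-04).

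Class II presentation genes were lower in 6 of 10 cases and higher in none (median -0.42), against 12.4% and 13.8% of all genes. Cd74, the chain that guides class II molecules to the endosome, stood at 2985, 3367, 3303 and 3959 CPM against 5572, 5617, 4408 and 6934. The class II chain gene H2-Ab1 stood at 1181, 1339, 1472 and 1852 CPM against 2172, 2148, 1385 and 2833. Cd74 was lower in the dividing cells of 4 of 4 libraries (log2 change -0.83, SE 0.08, adjusted p 6.0e-11) and H2-Ab1 in 3, TAZKO being the exception (log2 change -0.65, SE 0.09, adjusted p 8.1e-07). Per cell, the list gave 120, 185, 80.1 and 135 UMIs against 125, 188, 50.5 and 156, close to level in WT and YAPKO, larger in TAZKO and smaller in DKO.

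Of 8 genes of lipid-associated macrophages, 6 were lower and none higher (median -0.64), against 12.4% and 13.8% of all genes. Mmp12, a protease of activated macrophages, stood at 2.66, 51.2, 0 and 44.3 CPM against 9.89, 105, 11.1 and 361. It was most abundant in YAPKO and DKO in both classes, lower in the dividing cells of 4 of 4 libraries, and fell by 1.80 on the log2 scale. At 0 CPM in TAZKO and 2.66 in WT in dividing cells, it is a description with no p, though counted among the 6 lower genes. With no scaling factors 1 gene of the list was higher, and without TAZKO 1 was.

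Of 12 monocyte genes, 1 was higher and 3 lower (median -0.19), against 13.8% and 12.4% of all genes. Without WT none was lower, without YAPKO 5 were, and with DESeq2 1 was. The sum of the list ran the other way, at 2091, 2689, 1593 and 1867 CPM against 1776, 2134, 1462 and 1584. In TAZKO the intervals of the sums overlapped (1452 to 1743 and 1430 to 1495). Lgals3 was the most abundant gene of the list in every library and class. The higher gene was Vim, the filament protein vimentin, at 300, 413, 273 and 362 CPM against 143, 230, 116 and 206. It was higher in 4 of 4 libraries by 0.86 (SE 0.09, adjusted p 4.4e-10), and as a filament gene it is made by many cell types.

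Of 19 interferon-induced genes, 11 were lower and 1 higher (median -0.34), against 12.4% and 13.8% of all genes; without YAPKO 7 were lower, with DESeq2 7 and thinned 5. Irf7, the factor that amplifies the interferon response, stood at 448, 590, 397 and 211 CPM against 638, 784, 638 and 294. Cxcl10, a chemokine that draws T cells, stood at 49.8, 30.9, 121 and 39.1 CPM against 8.18, 8.56, 29.4 and 11.6. The list thus held genes of opposite direction, each in 4 of 4 libraries: Irf7 at a log2 change of -0.60 (SE 0.08, adjusted p 3.2e-07) and Cxcl10 at 1.99 (SE 0.18, adjusted p 2.4e-11).

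Of 16 inflammatory genes, 4 were higher and 5 lower (median 0.00), against 13.8% and 12.4% of all genes; without WT none was higher, with DESeq2 or thinned 1 was, and without YAPKO 3 were lower. Il1b, the cytokine interleukin-1 beta, stood at 156, 44.8, 141 and 164 CPM against 345, 137, 203 and 240. It was lower in 4 of 4 libraries and fell by 1.15 on the log2 scale (SE 0.12, adjusted p 6.9e-10).

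Iron handling, a main task of Kupffer cells, gave 9 lower genes and 1 higher of 11 (median -0.33), against 12.4% and 13.8% of all genes; without YAPKO 5 were lower, and without WT none was higher. Trf, transferrin, the iron carrier of blood, stood at 520, 487, 711 and 472 CPM against 827, 763, 1076 and 915, lower in 4 of 4 libraries (log2 change -0.81, SE 0.08, adjusted p 2.8e-10). Hepatocyte markers, counted below, were also lower in the dividing cells of all 4 libraries, and their part in the fall of Trf was not tested. Tfrc, the receptor that takes up transferrin, stood at 26.6, 18.1, 67.3 and 10.4 CPM against 12.0, 13.4, 31.9 and 10.1. It was the higher gene, in 4 of 4 libraries and barely so in DKO, by 0.70 (SE 0.20, adjusted p 0.00919), and not past the threshold without WT (0.52, adjusted p 0.202) or with DESeq2.

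Outside all lists, the rule for naming genes took the 15 largest differences each way. Among the higher genes, Esco2, which fastens sister chromosomes together, stood at 70.4, 51.8, 50.5 and 115 CPM against 0.190, 0.389, 0.729 and 0.155. Aspm, a protein of the spindle poles, stood at 26.6, 44.3, 90.9 and 36.5 CPM against 0, 0.389, 0.182 and 0.464. Both stood above in 4 of 4 libraries, at log2 fold changes of 7.38 and 7.15. Such genes are near 0 in the cells with 0 UMIs, pass the filter through the dividing cells and go with Mki67 and Top2a, so they are a description with no p. Iqgap3, a scaffold of the dividing cell's cortex, held 100 UMIs in dividing cells against 3, a log2 ratio of 7.73 (6.14 to 10.03). The others were Neil3, Sgo1, Prr11, Lockd, Melk, H3c3, Tcf19, Sgo2a, Cenpm, Espl1, Cep55 and Kntc1, several of which act in DNA repair or chromosome separation.

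Among the lower genes, Lepr, the leptin receptor, stood at 7.30, 4.66, 6.73 and 18.3 CPM against 19.8, 28.8, 32.8 and 70.1. It was highest in DKO in both classes, lower in the dividing cells of 4 of 4 libraries, and fell by 2.14 on the log2 scale (SE 0.23, adjusted p 3.7e-09). Its value in the dividing cells of TAZKO lay under the 10.1 CPM that 3 counts give there, so it rests on few UMIs. The other lower genes were Slc27a6, Ccl5, Il4i1, Gm3448, Gstp3, Ltb, Prelp, Igkc, Nipsnap1, Ldhb, Tcp11l2, Hal, Ces3a and Coq8a. Not past the threshold without WT were Coq8a (-1.61, adjusted p 0.0790), Gm3448 (-2.08, 0.0746), Gstp3 (-2.20, 0.104), Hal (-1.33, 0.0642) and Nipsnap1 (-1.42, 0.159), and without YAPKO Il4i1 (-2.06, 0.0655) and Ldhb (-1.80, 0.0652). Ccl5 turned to 0.44 with cells of at least 1 UMI taken as dividing, and Prelp to 0.32 with no upper limit on genes. Some of these genes had few UMIs in dividing cells, such as Ccl5 with 3, 3, 2 and 1 and Prelp with 4, 1, 1 and 0. Genes with so few reach the test through the other class, so they are a description from which no test is read. Some of the named lower genes are known from other cells: Igkc from B cells, Ccl5 and Ltb from lymphocytes, Prelp from stellate cells, and Hal and Ces3a from hepatocytes.

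Markers of other cell types were therefore counted as whole lists. All 10 hepatocyte markers were lower in dividing cells (median -1.18), against 12.4% of all genes, though none with no library block, and they summed to 1955 CPM in WT, 645 in YAPKO, 3499 in TAZKO and 662 in DKO, against 4554, 1228, 5388 and 2607. Alb, albumin, was the most abundant of them in every library and class, and the single marker at 0 in dividing cells was Cyp2e1 in DKO. Hepatocyte RNA was thus the lower in dividing cells of all 4 libraries and the highest in TAZKO, and its part in the other differences was not tested.

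Markers of lymphocytes and neutrophils were seen in dividing cells too. The 6 B cell markers summed to 39.2, 18.1, 53.9 and 23.5 CPM against 59.1, 53.3, 43.9 and 43.2, with TAZKO the library where the dividing cells had the larger sum; Cd79b led in the dividing cells of WT, YAPKO and DKO and tied with Ighm in TAZKO, and Ms4a1 was at 0 in YAPKO, TAZKO and DKO. The 6 T cell markers summed to 2.66, 0.582, 3.37 and 0 CPM against 10.1 to 19.7; Cd3d, Cd3e, Trac and Cd8a were at 0 in every library. The 5 natural killer cell markers summed to 0.664, 1.16, 0 and 0 CPM against 4.37, 13.5, 14.8 and 5.88; Nkg7 had 0 UMIs in the dividing cells of all libraries. The T cell marker Trbc2, Nkg7 and the B cell marker Cd79a passed the filter through the other class alone, so no test is read from these lists. The 6 neutrophil markers summed to 27.9, 40.8, 53.9 and 75.6 CPM against 345, 118, 138 and 187. Csf3r led in WT and YAPKO and S100a8 in DKO, and they tied at 8 UMIs each in TAZKO. Ly6g was at 0 in the dividing cells of every library, and S100a9 in those of TAZKO and DKO. S100a9 led the other class in WT and YAPKO, so no test is read from this list either. Of 3 tested, 3 were lower (median -2.60), against 12.4% of all genes. With cells that carry markers of other types left out 1 of 3 was lower (-0.15), as with at least 1 UMI (-0.46).

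Stromal and blood markers were counted in the same way. The 8 stellate cell markers summed to 133, 79.8, 199 and 67.8 CPM against 288, 104, 278 and 203, with Dcn or Ecm1 on top. Of 6 tested, 5 were lower, against 12.4% of all genes. Col1a1 and Col3a1 were at 0 in the dividing cells of all libraries but WT. Without WT 2 were lower, and with no library block 1 was. With no upper limit on genes none was lower, and the median turned from -0.97 to 0.56. Thinned, none of 4 was lower. With cells that carry markers of other types left out 1 of 5 was lower (median -0.15). The 5 red cell markers summed to 3.32, 4.66, 10.1 and 2.61 CPM against 249, 28.8, 45.2 and 20.3, with Hba-a2 at 0 in all libraries but YAPKO; those tested passed the filter through the other class alone, and no test is read from them. The 4 biliary markers Krt19, Krt7, Epcam and Sox9 were at 0 in the dividing cells of every library, and none was tested. Endothelial genes, limited by the rule, summed to 629, 608, 902 and 694 CPM against 807, 740, 1058 and 703, with Cdh5 on top.

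Dendritic cell markers stood apart in TAZKO. The 5 conventional dendritic cell markers summed to 9.30 CPM in WT, 13.4 in YAPKO, 182 in TAZKO and 20.9 in DKO, against 13.1, 17.5, 17.9 and 12.7. The TAZKO sum rests on 54 UMIs in 5 of 31 cells, of which 35 were in a single cell; Xcr1, a marker of cross-presenting dendritic cells, was on top and Cd209a at 0. The marker tested was not past the threshold. The 4 plasmacytoid dendritic cell markers summed to 53.8, 26.8, 6.73 and 88.7 CPM against 24.1, 38.8, 5.29 and 19.0. Cox6a2, a muscle-type subunit of the respiratory chain, was the list's leading gene in all libraries but TAZKO. It was higher in dividing cells (1 of 1 tested, log2 fold change 1.59, SE 0.30, adjusted p 8.5e-05). It was seen in 20 of 85 cells in WT, 14 of 73 in YAPKO, 0 of 31 in TAZKO and 7 of 28 in DKO. A single cell held 24 of its 79 UMIs in WT, 13 of 44 in YAPKO and 15 of 34 in DKO. YAPKO was near level, at 25.6 CPM against 22.8. Cox6a2 was not past the threshold with DESeq2, with no library block, or with at least 1.6% of UMIs from the Kupffer cell genes (1.02). Siglech, the defining receptor, was at 0 in the dividing cells of every library. The part of these cells in the TAZKO values was not tested.

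The deleted genes were checked in hepatocytes, where Cre acts. Yap1 stood at 20.6 CPM in WT hepatocytes, 4.59 in YAPKO, 45.0 in TAZKO and 4.52 in DKO. Wwtr1, which encodes TAZ, stood at 4.97, 13.1, 1.36 and 2.34. Each gene was lowest in the libraries that lack it, Yap1 in YAPKO and DKO and Wwtr1 in TAZKO and DKO; a 3′ tag outside the deleted part would check nothing. Dividing Kupffer cells held 1, 2, 4 and 0 UMIs of Yap1 and 6, 0, 0 and 0 of Wwtr1, too few to test, and all Kupffer cells stood at 1.76, 1.05, 4.85 and 0.644 CPM for Yap1. Of 7 other Hippo pathway genes and targets tested, 2 were lower and none higher (median -0.07), against 12.4% and 13.8% of all genes, and without WT or without YAPKO 1 was lower. They were the target Ccn1 and Lats2, a kinase that restrains YAP and TAZ, which stood at 12.0, 9.90, 33.7 and 18.3 CPM against 20.9, 16.9, 55.1 and 21.5 (lower in 4 of 4 libraries, log2 change -0.79, SE 0.20, adjusted p 0.00303).

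Genotypes were set side by side as ratios of each knock-out library to WT within the dividing cells, called at 2-fold or more among genes with at least 50 UMIs in the pair. The 3 sets of ratios share the WT library and describe single mice. YAPKO was above WT in 47 of 6821 genes (0.689%) and below in 84 (1.23%), TAZKO above in 477 of 5279 (9.04%) and below in 411 (7.79%), and DKO above in 71 of 5331 (1.33%) and below in 158 (2.96%). TAZKO thus stood furthest from WT; its dividing cells gave 296973 UMIs, against 1505832 in WT, 1717240 in YAPKO and 383466 in DKO.

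In TAZKO, 21 of 55 G2/M genes were above WT and none below (median log2 ratio 0.78, against 0.15 for all genes, of which 9.04% were above), while 9 of 34 S phase genes were below and none above (-0.59, against 7.79% below). Ccna2 shows the first group, at a log2 ratio of 1.90 (1.52 to 2.28), and Tyms, the enzyme that makes thymidylate, the second, at 26.9 CPM in TAZKO against 145 in WT and a log2 ratio of -2.43 (-3.66 to -1.43). In YAPKO 4 of 37 S phase genes were below WT (median -0.55), against 1.23% of all genes, and no G2/M gene was called. In DKO 1 of 36 and 2 of 55 were below, close to the 2.96% of all genes. The shift toward G2/M RNA was thus seen in the TAZKO library, which also had the fewest UMIs per cell. Of the 31 identity genes, none was called in YAPKO, 1 above and 2 below in TAZKO (against 9.04% and 7.79% of all genes), and 2 below in DKO (against 2.96%).

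In YAPKO, 4 of 8 genes of lipid-associated macrophages were above WT (median 0.80), against 0.689% of all genes. In TAZKO none of 4 was called (-0.29), against 9.04% of all genes above and 7.79% below. In DKO 1 of 5 was above (0.05), against 1.33% of all genes. Cd63, a membrane protein of lysosomes, stood at 7.30 CPM in the dividing cells of WT, 54.2 in YAPKO, 6.73 in TAZKO and 33.9 in DKO, and its YAPKO ratio was 2.89 (1.98 to 3.94), against 2.82 in the cells with 0 UMIs. Lgals1, a lectin of activated macrophages, stood at 9.30, 62.9, 13.5 and 70.4 CPM, with a YAPKO ratio of 2.76 (1.95 to 3.68), against 1.52. Both were high in YAPKO and DKO. Mmp12 (4.27, 2.86 to 6.18), S100a6 and Il15ra completed the 5 genes named above WT.

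The 5 genes named below WT in YAPKO were Hspa1b, Hspa1a, Cxcl2, Mup11 and Mup21. Hspa1b, a stress-induced chaperone, stood at 278 CPM in WT, 11.1 in YAPKO, 118 in TAZKO and 31.3 in DKO, and its YAPKO ratio was -4.65 (-5.40 to -3.99), against -3.82 in the cells with 0 UMIs. It was below WT in all 3 knock-out libraries. Cxcl2, a chemokine for neutrophils, stood at 55.1, 4.66, 37.0 and 33.9 CPM, with a YAPKO ratio of -3.56 (-4.82 to -2.52), against 2.10 in the cells with 0 UMIs. The WT value rests on 83 UMIs in 12 cells, 36 of them in a single cell.

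In TAZKO and DKO, Cd207, the lectin langerin, was high. It stood at 22.6 CPM in WT, 72.8 in YAPKO, 216 in TAZKO and 430 in DKO, with ratios of 3.25 (2.63 to 3.90) in TAZKO and 4.25 (3.71 to 4.83) in DKO, against 2.50 and 3.41 in the cells with 0 UMIs. Its 34 UMIs in WT came from 4 of 85 cells, 28 of them from a single cell, so the WT level that both ratios share rests on few cells; in the other libraries it was seen in 14 of 73 cells in YAPKO, 20 of 31 in TAZKO and 15 of 28 in DKO. Ifi44, an interferon-induced gene, stood at 41.8, 55.9, 347 and 31.3 CPM. It was high in TAZKO alone, with a ratio of 3.05 (2.59 to 3.53), against 3.67. The interferon-induced list did not follow it: of 17 genes in TAZKO, 3 were above WT and 5 below (median -0.17). Of all genes, 9.04% were above and 7.79% below. Naaa, a lysosomal lipid-cleaving enzyme, had a TAZKO ratio of 2.78 (2.27 to 3.31), against 0.98, with 34 of its 76 UMIs in a single cell.

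Gdf15 and Trib3 were at 0 in the dividing cells of TAZKO. Gdf15, a secreted stress hormone, held 87 UMIs in WT, 72 in YAPKO, 0 in TAZKO and 15 in DKO, and Trib3, a pseudokinase induced by amino acid stress, held 83, 56, 0 and 23. For these genes the upper end of the interval of the TAZKO ratio was -2.19 and -2.12. In DKO, Plac8, a gene of monocytes and other blood cells, stood at 36.5 CPM, against 786 in WT, 758 in YAPKO and 613 in TAZKO, with a ratio of -4.43 (-5.30 to -3.68), against -3.05 in the cells with 0 UMIs. It was seen in 4 of 28 dividing cells of DKO and in 81 of 85 of WT. Anxa2, a membrane-binding protein, was above WT in DKO at 3.13 (2.38 to 3.93), against 2.11.

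The naming rule also took ribosomal pseudogenes, predicted genes and major urinary protein genes, whose near-identical copies make the assignment of reads uncertain. They include Rps3a3, with 1 UMI in WT, 1 in YAPKO, 190 in TAZKO and 420 in DKO, Gm8420 with 522, 753, 0 and 111, and Mup11 with 154, 11, 0 and 0. The first was high in TAZKO and DKO, the second at 0 in TAZKO and the third at 0 in TAZKO and DKO. Hepatocyte markers in the dividing cells also differed: 7 of 8 were below WT in YAPKO (median -1.49, against 1.23% of all genes) and 8 of 8 in DKO (-1.62, against 2.96%). In TAZKO 1 of 8 was above (0.51, against 9.04%). Their part in the other ratios was not tested.

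The dividing Kupffer cells were last set against 234 other dividing immune cells (34 in WT, 70 in YAPKO, 74 in TAZKO and 56 in DKO), to ask whether they ran the cycle with the same RNA. Those cells held a UMI of the immune gene Ptprc, under 0.1% of UMIs from the Kupffer cell genes, under 0.3% from the endothelial genes and, by the same limit, at least 2 UMIs of Mki67 and Top2a. They were a mixture: T cell markers summed to 1185, 1344, 2519 and 2677 CPM, and neutrophil markers reached 10806 in YAPKO. Hepatocyte markers summed to 3217, 4260, 4485 and 4569 CPM, against 1955, 645, 3499 and 662 in dividing Kupffer cells. The median share of ribosomal UMIs was 19.0%, 18.3%, 20.7% and 19.4%, against 10.4%, 10.6%, 6.60% and 10.8%. Top2a stood at 568, 766, 933 and 718 CPM, against 454, 486, 761 and 498. Mki67 stood at 448, 611, 750 and 616 CPM, against 464, 422, 636 and 542. The other cells thus held more Top2a in all 4 libraries, and more Mki67 in all but WT. Their median depth was 15825, 16689, 11040 and 13320.5 UMIs, against 17699, 23110, 8562 and 13629, so the limit of 2 UMIs met unlike depths. Thinning, used below as an alternative, came after this choice of cells. The part of all these in the differences below was not tested. Over all genes, 1896 of 7950 (23.8%) were higher and 1786 (22.5%) lower in dividing Kupffer cells, by the same test over 4 libraries.

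Of 162 cell cycle genes tested, 7 were higher in dividing Kupffer cells and 78 lower, against those 23.8% and 22.5%, with a median log2 fold change of -0.54 beside -0.03 for all genes. With no scaling factors the median of all genes moved to 0.13 and that of these genes to -0.37. Without WT, YAPKO or DKO the higher genes numbered 4, 5 and 5, with no scaling factors 11, and with DESeq2 3. By list, 13 of 37 S phase genes were lower and 4 higher (median -0.40), 33 of 61 G2/M genes lower and 1 higher (-0.63), and 18 of 23 chromatin genes lower and none higher (-0.97). The sums did not all run this way: in TAZKO the G2/M list stood at 13001 CPM in dividing Kupffer cells against 11925 in the other cells, and in DKO the S phase list at 3930 against 3480. Of the rest, 3 of 14 DNA repair genes, 6 of 16 cycle entry genes and 5 of 11 restraining genes were lower, and 0, 1 and 1 higher.

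Hmgb3, a DNA-bending protein of stem and progenitor cells, stood at 1.33 CPM in dividing Kupffer cells of WT, 2.91 in YAPKO, 3.37 in TAZKO and 0 in DKO, against 47.5, 82.9, 38.8 and 63.2 in the other dividing cells. Ccnd2, cyclin D2, stood at 13.0 to 24.6 CPM against 105 to 247, with TAZKO highest among the other cells. Both stood below in 4 of 4 libraries with wide gaps. Hmgb3 passed the filter through the other cells alone, so it is a description with no p, and Ccnd2 fell by a log2 change of -2.84 (SE 0.25, adjusted p 9.3e-07). Hmgb2, though high in dividing Kupffer cells, stood at 3324, 3504, 4801 and 3738 CPM in the other cells, and fell by 1.74 on the log2 scale (SE 0.21, adjusted p 1.7e-05, lower in 4 of 4).

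The 7 higher genes were Tk1, Cdkn1a, E2f1, Cdt1, Rrm1, Kif23 and Mcm10. Tk1, which salvages thymidine for DNA, stood at 267, 229, 148 and 274 CPM against 131, 91.6, 70.8 and 107. Cdkn1a stood at 112, 141, 90.9 and 151 CPM against 73.6, 26.9, 38.8 and 58.0. Both were higher in dividing Kupffer cells of 4 of 4 libraries, by 1.04 (SE 0.16, adjusted p 1.8e-04) and 1.25 (SE 0.26, adjusted p 0.00130). The other cells were of several types in shares that differed between libraries, and the part of that mixture in these differences was not tested.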

How the data were processed

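The deposited counts are UMIs per gene and barcode for 4 libraries, made by the authors with Cell Ranger on mm10 (6.0.1 per the submitters' processing notes, 4.0.0 per the file headers). Files held 55488 genes and 13657, 7711, 14418 and 9188 barcodes in WT, YAPKO, TAZKO and DKO, of which 7155, 6275, 8638 and 8294 were kept, with median depths of 4618, 7337, 3555.5 and 5952.5 UMIs. Cells and genes were chosen as the report describes, and doublets were kept, with Scrublet scores as an alternative. The members and lists were chosen with earlier results of these data known. Of 434 list symbols 432 were found, 6 of them by older names.

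UMIs were summed per library and class and tested with edgeR 4.0.16 (quasi-likelihood F test, library as a block, trimmed-mean scaling, Benjamini-Hochberg adjustment over all genes tested), after the steps had been tested on simulated data. SE is the absolute log2 fold change divided by the square root of F. Cells were not treated as replicates, and genes of the rule were given no p. Shares have exact Clopper-Pearson and levels exact Poisson 95% intervals. Ratios to WT have exact conditional binomial intervals, and 0 counts a limit of 3 counts. Comparison cell types were classed after seeing the data, by marker sums of at least 0.3% (hepatocytes 2%) and a Kupffer sum under 0.1%. Alternatives were other limits on cells, doublet and marker filters, thinning, scaling, DESeq2 1.42.0, no block and leaving out each library.

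Named genes were the genes of the rule; of each list, the 4 with the most UMIs in dividing cells and all past the test; outside the lists, the 15 in each direction with the largest log2 fold change among genes with an adjusted p under 0.05, the same direction in 4 of 4 libraries and at least 100 UMIs; and, for ratios to WT, the 5 in each direction with the largest ratio (computed after adding 1 to both counts), for which 50 UMIs in the pair were required and the marker lists left out. Up to 4 examples of each group were described. Python 3.11.15, scanpy 1.11.5, numpy 2.4.6, scipy 1.17.1, pandas 2.3.3, matplotlib 3.10.9 and R 4.3.3 were used.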

Additional observations from a re-analysis of the deposited data

How the results depend on the processing

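The count of genes higher in dividing cells was within 1.5 times of 1482, and that of lower genes within 1.5 times of 1332, under the alternatives not named here; leaving out each library gave 1001 to 1602 higher and 723 to 1365 lower genes. With the limits of 500 and 6000 read as UMIs, which leaves 10, 1, 7 and 1 dividing cells, 10 genes were higher and 1 lower, and the shares were 4.95% in WT, 1.32% in YAPKO, 1.04% in TAZKO and 0.676% in DKO. Thinned to 3000 UMIs, 542 genes were higher and 454 lower, and the shares were 7.82% in WT, 5.99% in YAPKO and 2.09% in DKO. With no library block 661 were higher and 106 lower. With cells of at least 1 UMI taken as dividing 698 were lower, and the shares were 21.2%, 20.8%, 7.62% and 13.2%. Lower genes numbered 878 with no scaling factors and 717 with DESeq2. Against the other dividing immune cells, the higher cell cycle genes numbered 11 with no scaling factors, 3 with DESeq2, 2 when thinned and 4 to 10 with a library left out, and the lower ones 49 when thinned and 55 to 90 with a library left out. The cause of these moves was not tested.

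Some named genes changed direction. With at least 1 UMI the log2 fold change was 0.31 for Ccl4, 0.44 for Ccl5, 0.40 for Lgals1 and 0.98 for Trbc2. With no upper limit on genes it was 0.76 for Colec11, 0.50 for Dcn, 0.32 for Lrat, 0.32 for Prelp, 0.56 for Reln and 0.33 for Trbc2. With the limits read as UMIs it was -0.25 for Gapdh, 0.06 for Tgfbr2, -0.67 for Tpi1 and 0.05 for Vcam1, and with cells that carry markers of other types left out it was 0.47 for Ighm. The cause was not tested. Against non-dividing cells of the same depth range, 350 of 359 named genes kept their direction and their side of the threshold, and thinned 246 of 298 did. The same held for 307 of 359 without WT, 317 of 360 without YAPKO, 316 of 362 with DESeq2, 304 of 360 with at least 1 UMI, 221 of 362 with no library block and 20 of 119 with the limits read as UMIs. The depth of TAZKO and DKO, with 31 and 28 dividing cells, limits what their single libraries can show.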
